A study of Mus musculus with 32 samples.

Results

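The genes described here are 52 genes of mitosis and the G2/M transition, taken from a fixed list of gene symbols and looked up by symbol in both gene count tables of the study. All 52 were found, among 23284 genes in each table, and all 52 passed the low-count filter in both. The study sequenced total RNA from 32 mouse samples on a C57BL/6 background and asked what loss of Oct4 (Pou5f1), a pluripotency transcription factor, does in atherosclerosis and in smooth muscle cells. The 8 lesion libraries came from brachiocephalic arteries, which supply the head and right forelimb, of 4 WT and 4 Oct4 -/- (KO) animals that had all eaten a Western diet for 18 weeks. The 24 culture libraries came from primary aortic smooth muscle cells, 1 WT line and 1 Oct4 -/- line, each given vehicle or POVPC and held in normoxia or in hypoxia at 1% O2, with 3 libraries in each of the 8 groups. POVPC is an oxidized phospholipid of the kind that collects in lesions. Because each genotype is 1 line, Oct4 genotype and line cannot be told apart in culture. The labels do not say whether the 3 libraries of a group are separate wells, passages or days, so culture p-values measure only the spread between these libraries. How and in which cells Oct4 was deleted, the age and sex of the animals, and the dose and time of POVPC are not given in the sources used here. The lesions are labelled as a mixture of cell types.

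Entry into mitosis is driven by Cdk1, a kinase that is active only when bound to a cyclin A or cyclin B partner. Foxm1 and the B-Myb (Mybl2) complex switch on most genes of this program late in the cycle, and the DREAM complex holds the same genes off in resting cells. They act through a promoter element called CHR (cell cycle genes homology region). The CCAAT box is the other promoter element looked for here. Aurora and Polo kinases, kinesins, the kinetochore and its checkpoint, condensin, the anaphase-promoting complex and the cytokinesis machinery then act in turn. In vascular smooth muscle, levels of these transcripts are read as a sign of dividing cells, which are rare in a healthy artery and common in culture.

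Depth set the precision of each value. Library totals ran from 6526099 to 11137414 counts in lesions and from 8063121 to 30231799 in culture, and a gene of the list had a median of 52 counts per lesion library and 92 per culture library. Pou5f1 had counts in only 1 of 8 lesion libraries, at most 3, and in 3 of 24 culture libraries, at most 2, so its level could not check the genotype labels. In culture, none of the 8 smooth muscle markers was at 0 in all libraries, but 2 had a mean under 1 CPM, and their summed level ran from 40.5 to 404 CPM (counts scaled to a fixed, effective library size). One library stood apart: replicate 2 of WT cells with POVPC in hypoxia was the shallowest, and its 5 B-cell markers summed to 29.9 CPM against 0.102 to 1.2 CPM in the 23 others. Counts of 5 of the 52 genes are less certain, because their exons overlap another gene's and counting ignored strand: Ccna2, Cdc20, Foxm1, Kif20a and Ncapg. The overlap was widest for Kif20a, where 28.6% of the exon length lies over Cdc23, and 20.8% of Ncapg lies over Lcorl.

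The promoters of the list carry the 2 elements named above more often than promoters in general. RefSeq promoters on GRCm38.p6 (250 bases before to 50 after the annotated start) were matched for 44 of the 52 genes. They were not matched for Foxm1, Ccna2, Smc4, Incenp, Cdc25c, Aurkb, Tpx2 and Kif20a. The CHR core TTTGAA, searched on both strands, was in 32 of 44 promoters (72.7%) against 20.2% of all 27025 promoters of the same length. The core of the CCAAT box, the letters CCAAT on either strand, was also in 32 of 44 (72.7%) against 41.1%. Both together, counting the variant core TTCGAA as well, were in 28 of 44 (63.6%) against 9.65%. The 6 windows printed next are the 120 bases just before the start of 6 genes whose levels followed different patterns in the groups. Each is written 5′ to 3′ on the gene's strand, with matches to TTTGAA (or TTCAAA on the other strand), TTCGAA and CCAAT (or ATTGG) in capitals.
Cdk1 (chr10:69352913-69353032, minus strand): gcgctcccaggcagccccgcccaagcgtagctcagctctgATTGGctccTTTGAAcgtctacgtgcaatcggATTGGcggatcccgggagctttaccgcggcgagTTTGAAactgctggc
Ccnb2 (chr9:70421555-70421674, minus strand): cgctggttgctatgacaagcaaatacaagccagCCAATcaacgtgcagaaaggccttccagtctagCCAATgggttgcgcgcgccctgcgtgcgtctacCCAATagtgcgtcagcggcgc
Kif11 (chr19:37376262-37376381, plus strand): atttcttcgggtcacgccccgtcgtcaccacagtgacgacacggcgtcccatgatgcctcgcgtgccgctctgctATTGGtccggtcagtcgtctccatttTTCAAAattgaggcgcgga
Top2a (chr11:99024190-99024309, minus strand): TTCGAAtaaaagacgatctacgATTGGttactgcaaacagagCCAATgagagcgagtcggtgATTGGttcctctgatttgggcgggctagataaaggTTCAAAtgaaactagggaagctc
Cdc20 (chr4:118437344-118437463, minus strand): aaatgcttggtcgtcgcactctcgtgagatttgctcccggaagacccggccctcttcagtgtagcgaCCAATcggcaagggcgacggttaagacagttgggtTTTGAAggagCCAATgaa
Espl1 (chr15:102296173-102296292, plus strand): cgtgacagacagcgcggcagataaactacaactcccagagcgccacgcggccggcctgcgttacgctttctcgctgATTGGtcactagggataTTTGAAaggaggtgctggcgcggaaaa
In Cdk1 a CCAAT box lies 48 bases before the start and a CHR core 15 bases before it, and in Kif11 the same pair lies at 45 and 19 bases. In Espl1, which was lower in KO than in WT cells with vehicle in normoxia where Kif11 was higher, the pair lies at 44 and 27 bases. In Ccnb2 the CHR core nearest the start is at base 5 after it, outside the printed window. Over the list, TTTGAA matches gathered close to the start: 43.2% of the 44 promoters had one in the first 50 bases after it, against 2.18% of all promoters. A match is a stretch of letters, not a measured binding site. Anln, Kif15, Kif20b, Kif2c and Ndc80 had a CHR core with no CCAAT box, and Birc5, Mad2l1, Mybl2, Ncaph, Nuf2, Plk4 and Pttg1 had no match to any of the 3 cores.

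**Figure D1:**
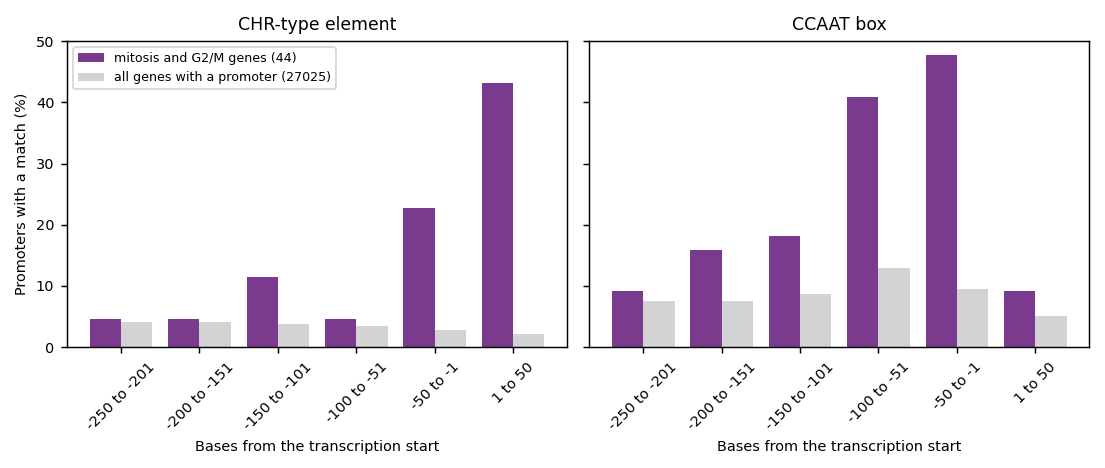
Share of promoters (%) with a match to the CHR core TTTGAA (left) and to CCAAT (right) in each 50-base bin by distance from the annotated start, for the 44 mitosis and G2/M genes with a promoter and for all 27025 genes. CHR matches were most frequent from base 1 to 50 (43.2% against 2.18%) and CCAAT matches from -50 to -1 (47.7% against 9.44%).

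The levels spanned a wide range over the 8 culture groups. The highest group mean was 1.6 to 39.3 times the lowest, with a median of 6.6, and for 15 of the 52 genes it was at least 10 times. The highest mean was in WT cells with POVPC in normoxia for 35 genes, and in KO cells with vehicle in normoxia for 8. The lowest mean was in KO cells in hypoxia for 34 genes, 21 of them with vehicle and 13 with POVPC, and in WT cells with POVPC in hypoxia for 10. Summed over the list, CPM were 432 to 472 in WT cells with vehicle in normoxia, 701 to 783 with POVPC, 526 to 537 in KO cells with vehicle and 495 to 503 with POVPC. In hypoxia, the sums were 313 to 351 and 266 to 294 in WT cells and 272 to 290 and 273 to 288 in KO cells, for vehicle and POVPC. Such a sum is weighted to the most abundant genes. In KO cells with vehicle in hypoxia, Smc2 was at 56.8, 63.7 and 54.8 CPM and Smc4 at 71.6, 77.7 and 73.1 CPM. In that setting both were higher in KO than in WT cells, while 32 genes of the list were lower. Per kilobase of exon, which allows genes to be compared, Smc4 had the highest level of the list in WT cells with vehicle in normoxia, at 22.8 CPM per kilobase, against a median of 1.19 over the list, and Pttg1, Anln, Top2a and Cdk1 came next. Kif18b had the widest range, from 4.62 ± 0.820 CPM (SD, n = 3) in WT cells with POVPC in normoxia to 0.118 ± 0.0548 CPM in KO cells with POVPC in hypoxia. That low end rests on 2, 4 and 2 counts. Cks2 had the narrowest range. For 6 genes WT cells with vehicle in normoxia were the lowest group: Foxm1, Kif11, Kif20b, Kif23, Cdca8 and Smc2. Aurka, Kif23 and Ect2 were highest in WT cells with vehicle in hypoxia. In bulk RNA, fewer dividing cells and less of these RNAs per cell cannot be told apart.

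**Figure D2:**
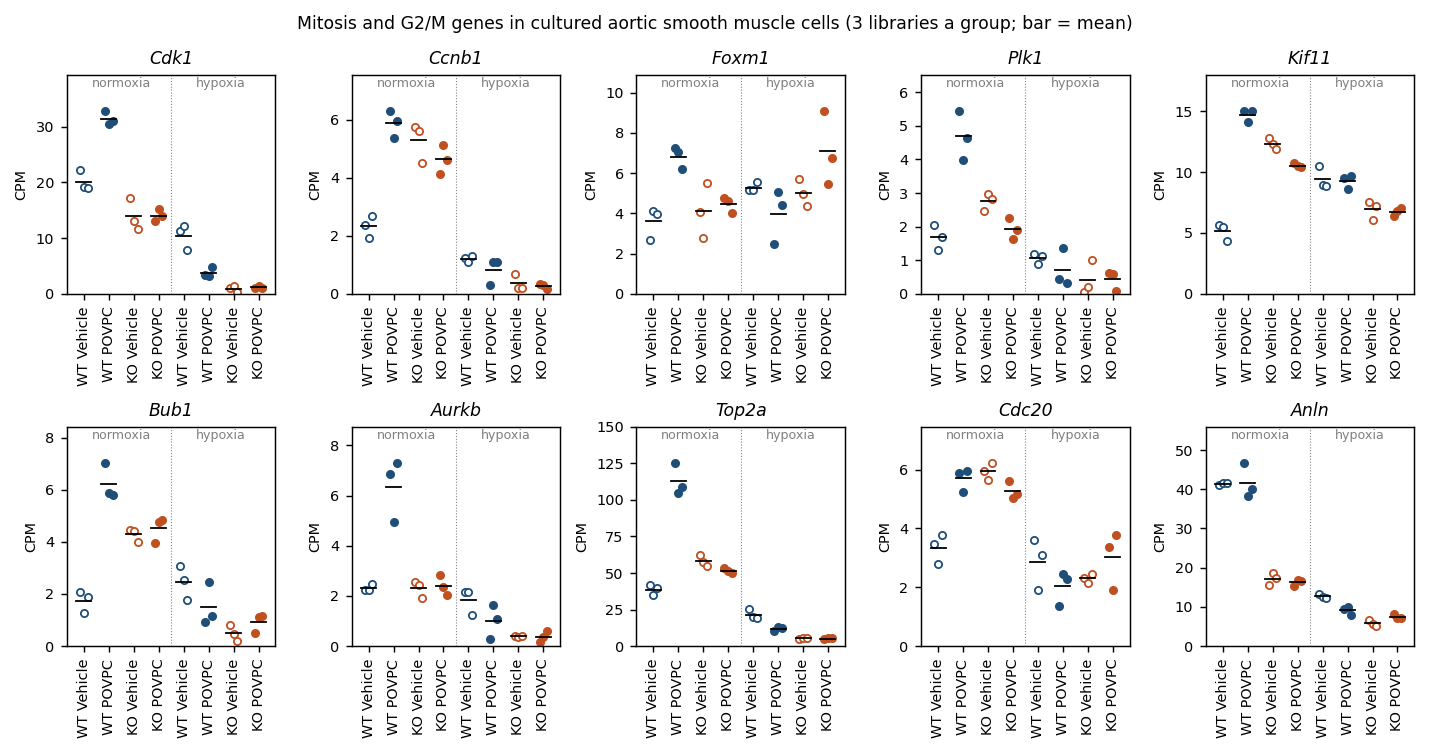
Level (CPM, linear axes from 0) of 10 genes in the 8 culture groups; each point is 1 library, 3 a group, and the bar is the mean. The highest mean was in WT cells with POVPC in normoxia for 8 of the 10 genes, all but Foxm1 and Cdc20, and the lowest mean was in hypoxic KO cells for 7: Cdk1, Ccnb1, Plk1, Bub1, Aurkb, Top2a and Anln.

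The first question is what POVPC did to these genes. In WT cells in normoxia, POVPC raised nearly the whole list: 46 of 52 genes rose and 1 fell, in edgeR's quasi-likelihood test with a false discovery rate (FDR, Benjamini-Hochberg over all genes tested) under 0.05. Over all 14496 genes tested, 13.1% rose and 13.8% fell (26.9% in all) in the same comparison. The median log2 fold change of the list was 1.08, against -0.02 over all genes.

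Among the cyclins and their kinase, 5 of 6 genes rose. Cdk1 was at 22.2, 19.2 and 19 CPM with vehicle and at 32.8, 30.5 and 31.1 CPM with POVPC. Ccnb1, the cyclin B that partners Cdk1, was at 2.38, 1.91 and 2.67 CPM with vehicle and at 6.29, 5.36 and 5.94 CPM with POVPC. In both genes every POVPC library lay above every vehicle library, by 0.64 ± 0.15 (log2 fold change ± standard error, FDR 0.00201) for Cdk1 and 1.34 ± 0.24 (FDR 7.23e-05) for Ccnb1. Ccna2 (1.22 ± 0.20), Ccnb2 (0.94 ± 0.28) and Cdc25c, a phosphatase that activates Cdk1 (1.29 ± 0.42), rose as well, though the Cdc25c call was lost without any one of 4 libraries and that of Ccnb2 without WT POVPC normoxia replicate 2, while Cks2, a small Cdk-binding subunit, was not called (0.17). Both transcription factors rose. Foxm1 went from 2.7, 4.13 and 3.98 CPM to 7.26, 7.03 and 6.19 CPM (0.92 ± 0.22, FDR 0.0019), with no overlap, and Mybl2 rose by 1.45 ± 0.29.

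Of 6 centrosome and spindle genes 5 rose, among them Plk1, the Polo kinase needed at mitotic entry and exit, which was at 2.05, 1.3 and 1.7 CPM with vehicle and at 5.44, 3.98 and 4.65 CPM with POVPC (1.48 ± 0.37, FDR 0.00316). Plk4, which starts centriole duplication, was not called (0.32). Of 9 kinesins 8 rose, with Kif4 (0.11) the exception. Kif11, the motor that pushes spindle poles apart, was at 5.62, 5.5 and 4.34 CPM with vehicle and at 15, 14.1 and 15 CPM with POVPC (1.51 ± 0.12, FDR 5.21e-11). All 10 kinetochore and checkpoint genes rose, from 0.69 ± 0.13 for Mad2l1, a checkpoint protein that binds Cdc20, through 1.58 ± 0.34 for the checkpoint kinase Ttk and 1.59 ± 0.27 for Ndc80, which binds microtubules together with Nuf2. The rise of Cenpa (0.97 ± 0.36, FDR 0.0436) was lost under DESeq2 and without any one of 5 libraries. Bub1, a checkpoint kinase, had the second largest rise of the list, from 2.09, 1.27 and 1.88 CPM to 7.01, 5.87 and 5.79 CPM (1.84 ± 0.27, FDR 3.51e-06). The 4 genes of the chromosomal passenger complex, which corrects faulty spindle attachments, rose too, and Birc5 (survivin) had the largest rise of the list: 2.02, 2.45 and 2.42 CPM with vehicle against 8.24, 8.19 and 9.8 CPM with POVPC (1.92 ± 0.23, FDR 8.23e-08). Aurkb, its kinase, was at 2.23, 2.23 and 2.46 CPM with vehicle and at 6.84, 4.93 and 7.28 CPM with POVPC (1.46 ± 0.27, FDR 0.000123). The vehicle and POVPC libraries did not overlap for Plk1, Kif11, Bub1, Birc5 or Aurkb.

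Genes of chromosome structure and of mitotic exit were less uniform. Top2a, the topoisomerase that untangles sister DNA, was at 41.7, 34.8 and 39.7 CPM with vehicle and at 125, 105 and 109 CPM with POVPC (1.54 ± 0.10, FDR 4.86e-13). Smc4, a core subunit of condensin, went the other way, from 90.2, 91.5 and 97.8 CPM to 65.2, 70.1 and 62.4 CPM, and was the only gene of the list to fall (-0.50 ± 0.07, FDR 4.5e-06). Its partner Smc2 rose by 0.57 ± 0.10. Cdc20, the activator of the anaphase-promoting complex, was at 3.46, 2.8 and 3.79 CPM with vehicle and at 5.9, 5.25 and 5.94 CPM with POVPC (0.77 ± 0.21, FDR 0.00671). Pttg1 (securin), which holds separase back until anaphase, was not called (-0.05). Anln (anillin), the scaffold of the contractile ring in cytokinesis, was at 41.1, 41.7 and 41.6 CPM with vehicle and at 46.6, 38.4 and 40.0 CPM with POVPC, so the groups overlapped and it was not called (0.01 ± 0.10, FDR 0.972). The other 3 cytokinesis genes, Prc1, Ect2 and Racgap1, rose. Smooth muscle markers moved in the same comparison: 6 of 8 fell and 1, Smtn, rose, and their summed level was 348 to 404 CPM with vehicle and 177 to 216 CPM with POVPC. The share of counts on the ribosomal RNA gene Rn45s was 1.31% to 1.5% with vehicle and 3.23% to 11.1% with POVPC. The part of either in the rise of the mitosis genes was not tested.

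KO cells did not show this rise. With POVPC in normoxia, 0 of 52 genes were called by edgeR and 0 by DESeq2, 2 had an unadjusted p under 0.05, and the median log2 fold change was -0.13 (0.01 over all genes). Few genes of any kind were called there, 0.0414% of those tested, with 0.0069% higher and 0.0345% lower. Top2a was at 62.4, 57.7 and 55.1 CPM with vehicle and at 53.2, 51.6 and 49.7 CPM with POVPC (-0.18 ± 0.10, FDR 0.675). Cdk1 was at 17.2, 13.1 and 11.6 CPM with vehicle and at 13, 15.2 and 13.9 CPM with POVPC (0.01 ± 0.16, FDR 0.994), within the vehicle range. Kif11 was at 12.8, 12.3 and 11.9 CPM with vehicle and at 10.7, 10.5 and 10.4 CPM with POVPC (-0.22 ± 0.12, FDR 0.675). The KO libraries thus lay between the vehicle and POVPC levels of WT cells for Kif11 and Top2a, and under both for Cdk1 in all 6 libraries. For Kif11 and Top2a every KO library with POVPC was under every one with vehicle, though neither gene was called. Over the list 39 fold changes were under 0 and 13 above, and the libraries did not overlap for 11 genes. These shares were not counted over all genes.

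The difference between the 2 lines' responses was itself tested, as the POVPC effect in KO cells minus that in WT cells. It was lower for 39 of 52 genes and higher for 1, against 8% lower and 8.17% higher over all genes (16.2% in all), with a median of -1.22. It was largest in size for Birc5 (-2.16 ± 0.32, FDR 8.46e-06) and was -1.73 ± 0.17 (FDR 6.5e-09) for Kif11 and -1.73 ± 0.14 (FDR 1.69e-10) for Top2a. The difference was also called for Bub1 (-1.76 ± 0.37), Plk1 (-1.99 ± 0.53), Aurkb (-1.39 ± 0.40) and Ccnb1 (-1.53 ± 0.33). It was called for Cdc20 too (-0.94 ± 0.30, FDR 0.026), but not once any one of 5 of the 12 libraries was left out. The Spc25 call was lost under DESeq2 and without any one of 9 libraries. Those of Kif18b and Ube2c were lost without any one of 8, that of Ttk without any one of 6 and that of Aurka without either of 2. Calls of Incenp, Ncapd2 and Racgap1 were lost only with library-size scaling. Smc4 was the 1 gene with a positive difference (0.45 ± 0.10, FDR 0.00279). For Cdk1 (-0.64 ± 0.22, FDR 0.0505) and Foxm1 (-0.81 ± 0.32, FDR 0.083) the difference was not called. Anln, which POVPC moved in neither line, had a difference of -0.09 ± 0.14.

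**Figure D3:**
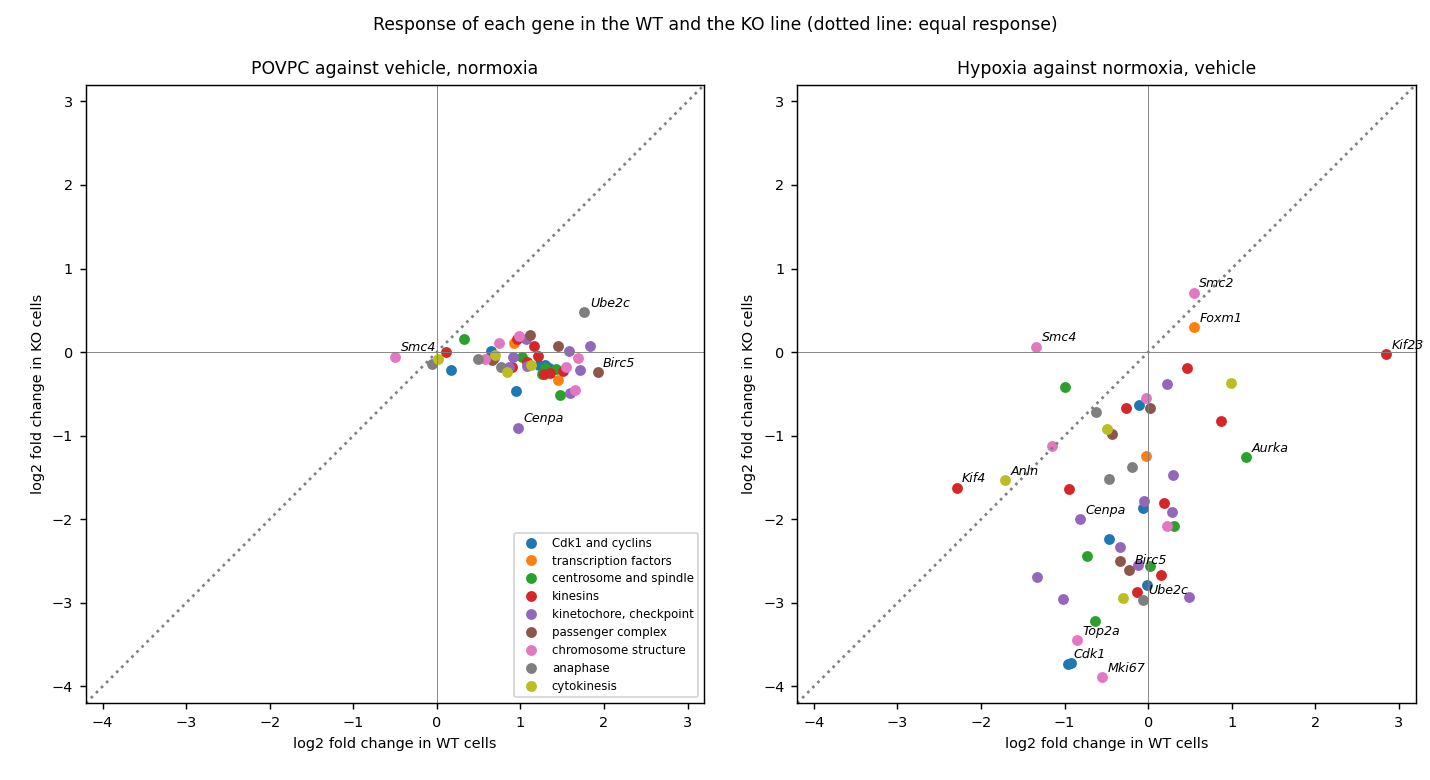
Log2 fold change of each of the 52 genes in WT cells (horizontal) and KO cells (vertical) for POVPC against vehicle in normoxia (left) and hypoxia against normoxia with vehicle (right), coloured by role; the dotted line is an equal response. With POVPC most genes lie to the right of 0 and near 0 on the vertical axis, and with hypoxia most lie under the dotted line, with Smc4 above it and Kif23 farthest to the right.

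Hypoxia with vehicle had unlike effects in the 2 lines: mixed in WT cells and a fall of most of the list in KO cells. In WT cells, 17 of 52 genes fell and 7 rose, against 35.3% lower and 32.8% higher over all genes (68.1% in either direction), so the share called was under the background, and the median was -0.17 (-0.03 over all genes). Cdk1 was at 22.2, 19.2 and 19 CPM in normoxia and at 11.3, 12.1 and 7.92 CPM in hypoxia, with no overlap (-0.96 ± 0.16, FDR 6.74e-06). Ccnb1 fell to 1.23, 1.1 and 1.29 CPM (-0.93 ± 0.27) and Top2a to 25.2, 19.8 and 19.4 CPM (-0.85 ± 0.10). The largest falls were those of Kif4, a chromokinesin, from 10.8, 10.2 and 10.8 CPM to 2.31, 1.65 and 2.4 CPM (-2.29 ± 0.23, FDR 3.74e-10), and of Anln, from 41.1, 41.7 and 41.6 CPM to 13.4, 12.5 and 12.2 CPM (-1.71 ± 0.10, FDR 9.52e-15).

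Some spindle and cytokinesis genes went the other way in hypoxic WT cells. Kif23, the kinesin of the central spindle that works with Racgap1 in cytokinesis, was at 1.58, 1.53 and 1.95 CPM in normoxia and at 13.8, 10.5 and 12.1 CPM in hypoxia, the largest rise of the list in any comparison (2.85 ± 0.22, FDR 1.32e-12). Racgap1 itself fell by 0.50 on the log2 scale. Aurka, the centrosomal Aurora kinase, rose from 2.59, 2.23 and 2.06 CPM to 4.8, 5.66 and 5.08 CPM (1.17 ± 0.22), and Ect2, a gene of cytokinesis, rose by 0.98 ± 0.15. Kif11 rose to 10.5, 8.95 and 8.83 CPM (0.87 ± 0.12, FDR 3.35e-07), and Kif20b (0.46 ± 0.16) and Smc2 rose as well. The Kif20b call was lost with library-size scaling and without any one of 3 libraries: WT vehicle normoxia replicate 3 or WT vehicle hypoxia replicates 1 or 3. Foxm1 rose by 0.55 ± 0.22 (FDR 0.0301), and this call was lost without WT vehicle normoxia replicate 1 (0.38) or either of WT vehicle hypoxia replicates 1 (0.57) and 3 (0.51). Bub1 (0.49), Plk1 (-0.64), Aurkb (-0.34) and Cdc20 (-0.19) were not called. The summed smooth muscle markers went from 348 to 404 CPM in normoxia to 76 to 85.4 CPM in hypoxia, with 7 of 8 lower and 1, Tagln, higher, and the Rn45s share went from 1.31% to 1.5% in normoxia to 2.11% to 3.47% in hypoxia. Their part in these changes was not tested.

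In KO cells with vehicle, hypoxia lowered 45 of 52 genes and raised 1, against 32.8% lower and 32.6% higher over all genes (65.4% in all), and the median was -1.80 (0.02 over all genes). Cdk1 was at 17.2, 13.1 and 11.6 CPM in normoxia and at 1.1, 1.33 and 0.408 CPM in hypoxia (-3.73 ± 0.23, FDR 1.93e-14). Top2a fell to 4.81, 5.86 and 5.5 CPM (-3.44 ± 0.12, FDR 4.72e-20) and Ccnb1 to 0.675, 0.191 and 0.204 CPM (-3.71 ± 0.34, FDR 8.33e-11). Mki67, which coats mitotic chromosomes and encodes the Ki-67 antigen, had the largest fall, from 14.8, 17.5 and 20.1 CPM to 1.01, 0.953 and 1.94 CPM (-3.89 ± 0.23, FDR 1.16e-14). None of these 4 genes had overlapping libraries. Bub1 fell by 2.93, Plk1 by 3.21, Aurkb by 2.50, Anln by 1.53, Cdc20 by 1.38 and Kif11 by 0.83 on the log2 scale, while Foxm1 was not called (0.30). All 6 cyclin and Cdk1 genes, all 10 kinetochore genes, all 4 passenger genes and all 4 anaphase genes fell, but 3 of these calls ended under alternatives. Cdca8 was lost under DESeq2, with the 2 groups fitted alone and without any one of 5 libraries, Cks2 with the 2 groups fitted alone, without the 3 shallowest libraries and without any one of 4 libraries, and Mad2l1 without either of 2 libraries. Smc2 was the gene that rose, from 38.1, 34.9 and 34.4 CPM to 56.8, 63.7 and 54.8 CPM (0.71 ± 0.10, FDR 2.38e-07), and Smc4 was not called (0.06), so neither core condensin subunit fell, while the condensin I subunits Ncapg, Ncapd2 and Ncaph fell by 2.08, 0.54 and 1.12. Prc1, which bundles the microtubules of the central spindle, fell by 2.94, Bub1b by 2.69 and Cenpf by 2.55, and Ect2 was not called (-0.37 ± 0.17, FDR 0.0503). Smooth muscle markers summed to 128 to 183 CPM in normoxia and 67.8 to 72.8 CPM in hypoxia, with 2 of 8 lower and 1 higher, and their part in these falls was not tested.

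Set side by side, 15 genes fell in hypoxia in both lines with vehicle, and 28 were called lower in KO cells alone. In WT cells alone 2 (Plk4 and Smc4) were called lower, and Aurka and Kif11 rose in WT cells and fell in KO cells. How many of all genes had the same pairs of calls was not counted. The tested difference (hypoxia effect in KO cells minus that in WT cells, with vehicle) was lower for 38 genes and higher for 1, against 19.9% lower and 19.2% higher over all genes (39.1% in all), with a median of -1.75. It was -3.43 ± 0.45 for Bub1 (FDR 5.38e-07), -3.34 ± 0.30 for Mki67 (FDR 3.85e-10), -2.88 ± 0.30 for Kif23 (FDR 6.48e-09), -2.77 ± 0.29 for Cdk1 (FDR 7.22e-09) and -2.60 ± 0.16 for Top2a (FDR 1.17e-13). Smc4, which fell in WT cells (-1.34 ± 0.08) and was not called in KO cells, had the positive one (FDR 1.23e-11). For Anln (0.17 ± 0.16, FDR 0.401) and Pttg1 (-0.08 ± 0.21, FDR 0.789) it was not called.

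With POVPC, hypoxia lowered the list in both lines: 45 of 52 genes fell in WT cells, with 1 higher (34.3% lower and 31.8% higher over all genes, 66.1% in all), and 43 fell in KO cells, with 2 higher (33.9% lower and 34.5% higher, 68.5% in all). The medians were -1.86 and -1.48. Smooth muscle markers summed to 177 to 216 CPM in normoxia and 40.5 to 54.9 CPM in hypoxia in WT cells, with 6 of 8 lower, and to 155 to 167 CPM and 44.5 to 67.3 CPM in KO cells, with 4 lower and 1 higher. Their part in the falls was not tested. In WT cells Cdk1 went from 32.8, 30.5 and 31.1 CPM to 3.33, 3.14 and 4.77 CPM (FDR 3.49e-14) and Top2a from 125, 105 and 109 CPM to 10.4, 13 and 12.2 CPM (-3.26 ± 0.11, FDR 3.51e-20). Nuf2, an outer kinetochore subunit that grips microtubules, had the largest fall there, from 6.5, 6.48 and 6.58 CPM to 0.757, 0.273 and 0.508 CPM (-3.58 ± 0.29), and Hmmr, a spindle assembly factor, fell by 3.41. Kif23 was the 1 gene that rose in WT cells, to 5.07, 4.92 and 9.58 CPM (0.75 ± 0.21), a call lost without WT POVPC hypoxia replicate 3, the highest of them. In KO cells Kif18b, which shortens microtubules at their ends, fell by 4.11, to 2, 4 and 2 counts. Ccnb1 fell by 4.04, to 8, 7 and 4 counts, and Smc2 (0.75 ± 0.10) and Foxm1 (0.67 ± 0.22) rose. The Foxm1 rise in KO cells was not called without KO POVPC hypoxia replicate 1 (0.43), the library at 9.09 CPM beside 5.47 and 6.76 CPM. The Foxm1 fall in WT cells (-0.80 ± 0.24) was not called without WT POVPC hypoxia replicate 1 (-0.56).

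The same difference between the lines' hypoxia effects was tested with POVPC. There 11 genes were higher and 3 lower (15.7% and 14.4% over all genes, 30% in all), with a median of 0.07. The higher ones were led by Mybl2 (1.58 ± 0.49, FDR 0.0137), Foxm1 (1.47 ± 0.32, FDR 0.000756) and Kif4 (1.23 ± 0.40, FDR 0.0202), and the lower ones were Espl1 (-1.26 ± 0.23, FDR 9.45e-05), Mki67 (-0.84 ± 0.31, FDR 0.0386) and Prc1 (-0.75 ± 0.25, FDR 0.0239). The Mki67 call was lost without any one of 6 libraries, the one that stood apart among them, those of Prc1 and Kif4 without any one of 3, and that of Mybl2 without KO POVPC hypoxia replicate 3. Cdk1 (-0.62 ± 0.30, FDR 0.119) and Top2a (-0.05 ± 0.16, FDR 0.835) were not called. Without the library that stood apart, 13 genes were higher and 3 lower.

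In hypoxic WT cells POVPC lowered part of the list. There 13 genes fell and 1 rose, against 12.7% lower and 8.22% higher over all genes (21% in all), with a median of -0.47. Cdk1 was at 11.3, 12.1 and 7.92 CPM with vehicle and at 3.33, 3.14 and 4.77 CPM with POVPC (-1.40 ± 0.20, FDR 4.94e-06), and Top2a fell from 25.2, 19.8 and 19.4 CPM to 10.4, 13 and 12.2 CPM (-0.87 ± 0.11, FDR 2.1e-06). Neither gene's libraries overlapped. Ube2c, the ubiquitin-conjugating enzyme of the anaphase-promoting complex, had the largest fitted fall (-1.47 ± 0.46, FDR 0.0221), resting on 0, 4 and 14 counts in the POVPC libraries, at 0.911, 0.879 and 1.35 CPM with vehicle and 0, 0.546 and 0.547 CPM with POVPC. This call was lost without WT vehicle hypoxia replicate 3, without WT POVPC hypoxia replicate 1 and with the 2 groups fitted alone. Hmmr fell by 1.38. Espl1 (separase), the protease that cuts cohesin at anaphase, was the 1 gene that rose, from 13.6, 13.9 and 13.7 CPM to 17.6, 26 and 23.6 CPM (0.70 ± 0.15, FDR 0.0011). Of the genes called higher with POVPC in normoxia, 10 were called lower with it in hypoxia: Cdk1, Cenpf, Hmmr, Kif18b, Kif23, Mad2l1, Mki67, Racgap1, Top2a and Ube2c. The share of all genes with this pair of calls was not counted. Smooth muscle markers summed to 76 to 85.4 CPM with vehicle and 40.5 to 54.9 CPM with POVPC, and the Rn45s share was 2.11% to 3.47% and 4.2% to 7.09%. The part of either was not tested. Without the library that stood apart, 12 genes fell and 1 rose. With only the 2 groups in the fit, the total called was 5, and leaving out WT vehicle hypoxia replicate 1 or WT POVPC hypoxia replicate 1 gave 9 each.

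The change of the POVPC effect between oxygen levels was tested within each line. In WT cells it was lower in hypoxia for 42 of 52 genes and higher for 0 (13.4% and 10.1% over all genes, 23.5% in all), with a median of -1.51. It was -3.23 ± 0.55 for Ube2c (FDR 5.34e-05), -2.69 ± 0.42 for Bub1 (FDR 1.76e-05), -2.41 ± 0.15 for Top2a (FDR 6.62e-13) and -2.04 ± 0.25 for Cdk1 (FDR 3.31e-07). In KO cells 0 genes were called by edgeR and 0 by DESeq2, 4 had an unadjusted p under 0.05, and 0.642% of all genes were called. POVPC in hypoxic KO cells likewise gave 0 calls with edgeR, against 4.06% of all genes called at the same FDR (1.97% higher and 2.09% lower). In that comparison 7 genes of the list had an unadjusted p under 0.05, a share that was not counted over all genes. DESeq2 called 1 gene of the list higher and 1 lower. Cdk1 was at 1.1, 1.33 and 0.408 CPM with vehicle and at 0.997, 1.36 and 1.07 CPM with POVPC there (0.12 ± 0.31, FDR 0.898). The POVPC effect in hypoxia was higher in KO than in WT cells for 6 genes and lower for 0 (5.89% and 3.48% over all genes, 9.37% in all): Cdk1 (1.51 ± 0.36), Hmmr (1.32 ± 0.36), Kif23 (0.96 ± 0.29), Top2a (0.82 ± 0.18), Anln (0.81 ± 0.17) and Mad2l1 (0.77 ± 0.20). Without the 3 shallowest libraries, WT cells with POVPC in hypoxia keep 1 library, so that fit cannot test these calls. Its Cdk1 difference was 1.03. The Kif23 call was lost without any one of 7 libraries, and that of Hmmr without either of 2.

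**Figure D4:**
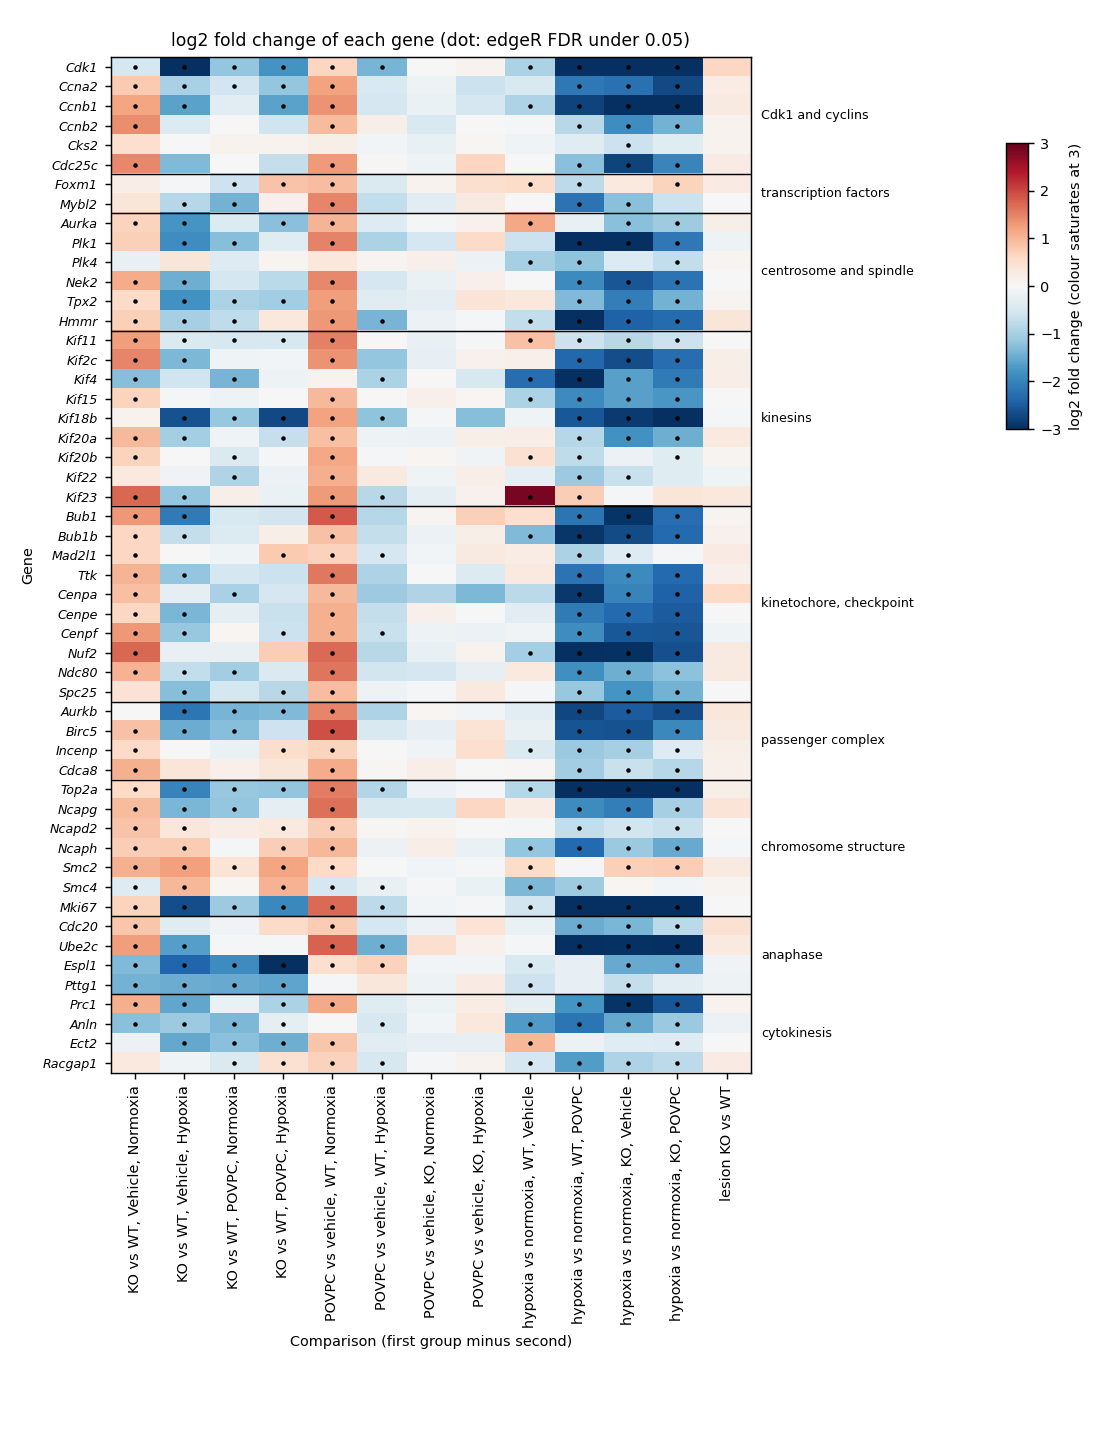
Log2 fold change (colour, first group minus second, saturating at 3) of the 52 genes by role in the 12 culture comparisons and the lesion comparison; a dot marks FDR under 0.05. The column for POVPC in normoxic WT cells is red throughout except for Smc4 and a few pale genes, the POVPC columns for KO cells and the lesion column have no dot, and 3 of the 4 hypoxia columns are mostly blue.

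The second question is how KO cells differed from WT cells at matched treatment. These comparisons share libraries with those already given, so their values are set beside them and are not separate support. With vehicle in normoxia 35 of 52 genes were higher in KO cells and 6 lower, against 29.8% higher and 30.8% lower over all genes (60.6% in all), and the median was 0.69 (-0.02 over all genes). Kif23 was highest above WT (1.73 ± 0.22, FDR 1.05e-07), at 3.79, 6.14 and 6.73 CPM in KO and 1.58, 1.53 and 1.95 CPM in WT cells, followed by Nuf2 (1.71 ± 0.21). Bub1 was at 4.46, 4.43 and 3.98 CPM in KO against 2.09, 1.27 and 1.88 CPM in WT cells (1.30 ± 0.27), Ccnb2 was 1.39 ± 0.27 higher, Kif2c 1.47 ± 0.33, Cenpf 1.29 ± 0.18, Kif11 1.25 ± 0.12, Ccnb1 1.19 ± 0.24, Cdc20 0.83 ± 0.21 and Top2a 0.59 ± 0.10.

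The 6 lower genes included 4 of the 5 genes with the highest level per kilobase in these WT cells. Anln was at 15.7, 18.7 and 17.3 CPM in KO and 41.1, 41.7 and 41.6 CPM in WT cells (-1.26 ± 0.10, FDR 9.12e-12). Pttg1 was at 13.6, 12.4 and 9.8 CPM against 31.1, 31.7 and 32.3 CPM (-1.42 ± 0.14, FDR 9.05e-10), and Espl1, the separase that Pttg1 inhibits, at 8.61, 7.19 and 7.13 CPM against 18.4, 19.1 and 19.4 CPM (-1.31 ± 0.15, FDR 1.42e-08). In these 3 genes every KO library was far under every WT library. Kif4 (-1.28 ± 0.21), Cdk1 (-0.53 ± 0.16, FDR 0.00499) and Smc4 (-0.40 ± 0.07) were the others. Plk1 (0.72, FDR 0.108), Foxm1 (0.20) and Aurkb (FDR 0.996) were not called. Smooth muscle markers differed between the lines as well: 7 of 8 were lower and 1, Smtn, higher in KO cells. Smtn was at 88.1 ± 23.7 CPM against 36.3 ± 1.62 CPM (SD, n = 3), and the summed level was 128 to 183 CPM against 348 to 404 CPM. The part of these markers in the difference was not tested.

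With vehicle in hypoxia the direction was the other one: 4 genes were higher in KO cells and 32 lower, against 29.5% and 30.4% over all genes (59.9% in all), with a median of -1.06. Cdk1 showed the largest gap, 1.1, 1.33 and 0.408 CPM in KO against 11.3, 12.1 and 7.92 CPM in WT cells (-3.30 ± 0.23, FDR 6e-13), and Mki67 was 1.01, 0.953 and 1.94 CPM against 7.64, 7.14 and 7.72 CPM (-2.67 ± 0.24). Kif18b (-2.62 ± 0.43), Espl1 (-2.37 ± 0.18), Aurkb (-2.16 ± 0.41), Bub1 (-2.13 ± 0.36), Top2a (FDR 2.68e-14), Ccnb1 (-1.60 ± 0.39), Anln (-1.09 ± 0.12) and Kif11 (-0.44 ± 0.13) were lower too. The Kif18b value rests on 10, 4 and 2 counts in the KO libraries. Plk1 was lower by -1.86 ± 0.59, a call lost without KO vehicle hypoxia replicate 1 (-1.15) or 2 (-1.57), and Foxm1 (-0.06) and Cdc20 (-0.36) were not called. The 4 higher genes were all condensin subunits: Smc2 (1.22 ± 0.10), Smc4 (1.01 ± 0.08), Ncaph (0.76 ± 0.16) and Ncapd2 (0.34 ± 0.12), the last lost with library-size scaling and without either of 2 libraries. The other condensin subunit of the list, Ncapg, was lower, at 0.97, 1.05 and 1.22 CPM in KO against 2.14, 2.58 and 3.42 CPM in WT cells. Smc4 was at 71.6, 77.7 and 73.1 CPM in KO against 39.7, 34.1 and 36.8 CPM in WT cells. Of the genes higher in KO cells in normoxia, 22 were lower in hypoxia, and Anln, Cdk1, Espl1 and Pttg1 were lower at both oxygen levels. The share of all genes with such pairs of calls was not counted.

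With POVPC in normoxia 24 genes were lower in KO cells and 1, Smc2, higher (30.7% and 29.5% over all genes, 60.2% in all), with a median of -0.45. The lower genes were led by Espl1 (-1.89 ± 0.15) and Pttg1 (-1.50 ± 0.14), and Cdk1 was -1.17 ± 0.16, Top2a -1.13 ± 0.10, Aurkb -1.39 ± 0.27, Plk1 -1.27 ± 0.37, Anln -1.36 ± 0.10 and Kif11 -0.48 ± 0.12. Foxm1 was lower by -0.61 ± 0.22, a call lost without KO POVPC normoxia replicate 3 (-0.54). Bub1 (-0.46), Ccnb1 (-0.34) and Cdc20 (-0.11) were not called.

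With POVPC in hypoxia 18 genes were lower in KO cells and 8 higher (27.6% and 30% over all genes, 57.6% in all), with a median of -0.40. Espl1 had the largest gap, 3.07, 1.9 and 2.53 CPM in KO against 17.6, 26 and 23.6 CPM in WT cells (-3.14 ± 0.18, FDR 4.39e-15), and Kif18b (-2.70 ± 0.58), Mki67 (-1.94 ± 0.26), Cdk1 (-1.79 ± 0.25), Pttg1 (-1.59 ± 0.15) and Top2a (-1.19 ± 0.13) were lower. The Kif18b value rests on 2, 4 and 2 counts in KO and 4, 10 and 22 counts in WT cells. The higher genes were Smc2 (1.18 ± 0.10), Smc4 (1.04 ± 0.08), Foxm1, Mad2l1, Ncaph, Incenp, Racgap1 and Ncapd2. Several calls here rested on 1 library: Foxm1 (0.85 ± 0.24) was not called without KO POVPC hypoxia replicate 1 (0.59), Ccnb1 (-1.60 ± 0.45) without WT POVPC hypoxia replicate 3 (-1.10), Aurkb (-1.32 ± 0.46) without any one of 3 libraries, and Anln (-0.28 ± 0.12, FDR 0.0497) without any one of 4. Ncapd2 (0.30 ± 0.13) was lost under DESeq2 and without any one of 4 libraries, and Racgap1 (0.46 ± 0.16) without any one of 3. Without the library that stood apart, 16 genes were lower and 6 higher. Pttg1 and Espl1 were thus lower in KO cells in all 4 matched comparisons, and so were Cdk1 and Anln, with the limit just given for Anln. How many of all genes were lower in all 4 was not counted.

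In the lesions none of these differences was detected. Of 52 genes 0 were called by edgeR and 0 by DESeq2, as for all 14993 genes tested (0% called), and 3 had an unadjusted p under 0.05. The fold change was above 0 for 40 genes, with a median of 0.14 (-0.01 over all genes). The shares of all genes above 0, at such a p or without overlap of the groups were not counted. Cdk1 was at 5.32, 6.14, 5.5 and 8.04 CPM in KO and at 4.07, 3.91, 4.06 and 4.39 CPM in WT animals (0.61 ± 0.18, FDR 0.186). It was the 1 gene of the 52 for which the 2 groups did not overlap. Cenpa, the histone that marks centromeres, was at 4.71, 7.08, 6.87 and 7.42 CPM in KO and at 3.55, 4.27, 4.91 and 4.49 CPM in WT animals, overlapping at 1 KO library (0.60 ± 0.19, FDR 0.209). Top2a was at 32.1, 32.4, 43.0 and 52.7 CPM in KO and at 34.8, 31.6, 44.3 and 30.2 CPM in WT animals (0.19 ± 0.19, FDR 0.666), and Mki67 at 49.2, 42.9, 62.5 and 80.5 CPM against 61.6, 49.0, 68.6 and 56.0 CPM (0.00 ± 0.19, FDR 0.997); both ranges overlapped. Anln was at 34.0, 34.8, 42.8 and 39.8 CPM in KO and at 39.9, 42.5, 54.1 and 34.8 CPM in WT animals (-0.18 ± 0.14, FDR 0.593), and Espl1 (-0.10 ± 0.22) and Pttg1 (-0.16 ± 0.11) were not called. No marker of another cell type was called in lesions either. All 9 macrophage markers had a fold change above 0 and an unadjusted p under 0.05, with sums of 3987 to 9335 CPM in KO against 2432 to 3663 CPM in WT animals. All 8 smooth muscle markers were under 0, 6 of them with an unadjusted p under 0.05, with sums of 4214 to 6289 CPM against 6126 to 9144 CPM. All 6 endothelial markers were above 0, 5 with an unadjusted p under 0.05, with sums of 1517 to 1778 CPM against 1145 to 1393 CPM. All 5 B-cell markers were above 0 (sums 9.68 to 24.5 CPM against 7.75 to 12 CPM) and 8 of 9 tested thymocyte markers under 0 (25.1 to 106 CPM against 63.6 to 213 CPM). The part of these in the lesion values was not tested.

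**Figure D5:**
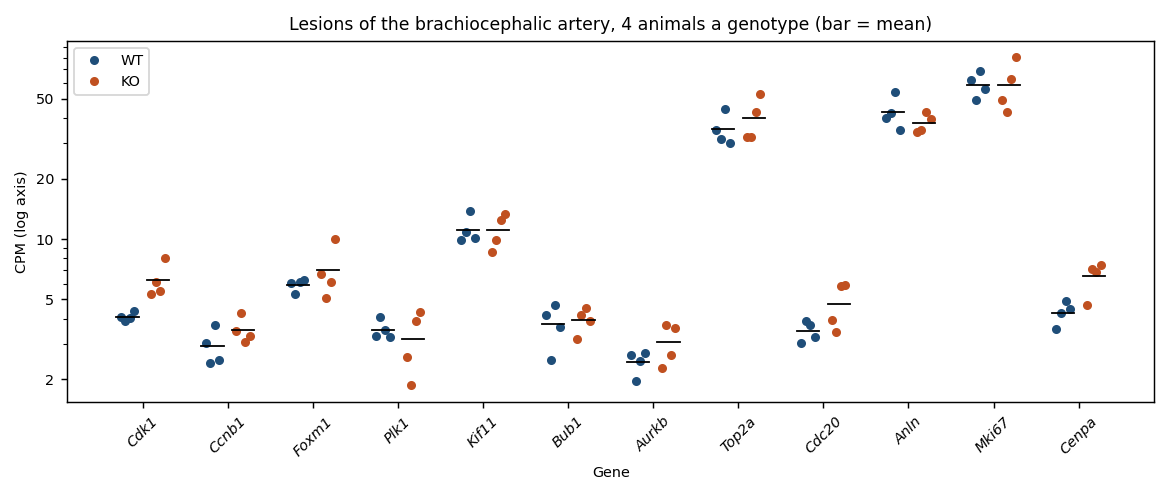
Level (CPM, log axis) of 12 of the genes in lesions of 4 WT and 4 KO animals; each point is 1 animal and the bar is the mean. The groups overlap for every gene shown except Cdk1, for which the KO animals sit at 5.32 to 8.04 and the WT animals at 3.91 to 4.39.

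Related genes that are not on the list were read the same way. Of 65 other mitosis genes, 46 rose and 1 fell with POVPC in normoxic WT cells (median 0.90, largest 1.82). Ncapg2 (1.28 ± 0.14), Sgol2 (1.32 ± 0.15) and Spag5 (1.22 ± 0.16) were among those that rose. In normoxic KO cells POVPC gave 0 calls in these 65 genes. Of 26 S-phase genes, which copy the DNA, 24 rose in the same WT comparison and 0 fell, with Mcm5 at 1.41 ± 0.12 and Uhrf1 at 1.70 ± 0.15. In hypoxic WT cells with vehicle 19 of 26 S-phase genes rose and 2 fell (median 0.89), led by Pcna (1.92 ± 0.09, FDR 3.85e-17) and Mcm3 (1.90 ± 0.11, FDR 4e-15), against 32.8% higher and 35.3% lower over all genes. In the same comparison 17 of the 52 mitosis genes fell and 7 rose. In hypoxic KO cells 13 S-phase genes rose and 9 fell (median 0.27; 32.6% higher and 32.8% lower over all genes), with Pcna at 1.29 ± 0.09 and Uhrf1 at -2.11 ± 0.18, and 45 of the 52 mitosis genes fell and 1 rose. Their summed level was 462 to 492 CPM in normoxic and 940 to 994 CPM in hypoxic WT cells with vehicle, and 497 to 525 CPM and 757 to 773 CPM in KO cells. The anaphase-promoting complex is the ubiquitin ligase that Cdc20 activates. Of 13 genes listed for it, subunits and the conjugating enzyme Ube2s, 4 fell (30.8%) and 0 rose with POVPC in normoxic WT cells. Their median was -0.18, with Cdc16 at -0.36 ± 0.08. Over all genes in that comparison, 13.1% rose and 13.8% fell (26.9% in all).

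The switch and brake genes of the cycle were mixed. For comparison, POVPC in normoxic WT cells raised 13.1% of all genes and lowered 13.8% (26.9% in all). Of 9 tested regulators of the G2/M switch, 4 rose and 1 fell with POVPC in normoxic WT cells, among them Mastl (0.93 ± 0.17), which shields Cdk1 targets from dephosphorylation, and Pkmyt1 (1.03 ± 0.22), a Cdk1 inhibitory kinase. In hypoxic WT cells Wee1, the other inhibitory kinase, fell by 1.71, as did Cdc25b, the phosphatase that opposes it, and Pkmyt1 rose by 1.61. Of 18 genes of the E2F and DREAM families 5 rose with POVPC in normoxic WT cells, among them E2f7 (2.13 ± 0.33) and Rbl1 (0.87 ± 0.17). Of 7 CDK inhibitors 1 fell in that comparison (14.3%, near the 13.8% of all genes that fell). It was Cdkn2b (p15), which went from 34.7 ± 0.769 CPM (SD, n = 3) to 16 ± 0.362 CPM (-1.12 ± 0.08, FDR 3.3e-12). In KO cells Cdkn2b was at 34.8 ± 1.15 CPM with vehicle and 35.9 ± 1.26 CPM with POVPC. Cdkn1b (p27) was at 248 ± 4.61 CPM in KO and 107 ± 3.86 CPM in WT cells with vehicle in normoxia (1.22 ± 0.07, FDR 4.77e-15), and Cdkn1a (p21) at 159 ± 18.1 CPM against 84.6 ± 5.81 CPM (0.91 ± 0.10, FDR 2.31e-09). Of the 7 inhibitors 3 were higher and 2 lower there (median 0.00), against 29.8% higher and 30.8% lower over all genes (60.6% in all). The lower ones were Cdkn2a, at 4.92 ± 1.64 CPM against 15.6 ± 1.34 CPM (-1.65 ± 0.21, FDR 1.02e-07), and Cdkn1c, at 0.0265 ± 0.046 CPM against 0.717 ± 0.0796 CPM.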

How the data were processed

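Total RNA was sequenced from 8 lesion and 24 culture libraries. The authors deposited raw gene counts against mm9, made with featureCounts 1.4.4 without strand over exons grouped by gene name, per the file headers; lesion pairs were counted as fragments, and the 2 mates of a culture pair separately, so culture counts overstate molecules. The submitters' processing notes also name CASAVA, STAR and DESeq2. Lesion and culture tables were fitted apart.

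Counts were tested with edgeR 4.0.16 (R 4.3.3) by the quasi-likelihood test with TMM scaling, after a filter on low counts (minimum 10, total 15) that left 14993 lesion and 14496 culture genes. Each of the 13 pair comparisons and 6 differences of effects was adjusted by Benjamini-Hochberg over all genes tested, with calls at an FDR under 0.05. Errors of log2 fold changes are standard errors. The fit was tested on simulated data. Totals ran from 6526099 to 30231799 counts per library, and replicates within a group differed by more than sampling noise.

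Cdk1, Ccnb1, Foxm1, Plk1, Kif11, Bub1, Aurkb, Top2a, Cdc20 and Anln were given in full. For each comparison the 2 largest called rises and falls (mean level 1 CPM or above) and genes against the direction of most, were added, and from the other lists up to 4 genes with the smallest p; further members were named after their values were seen. The 52 genes and all lists were chosen with earlier results of these data known. Promoter sequences are from RefSeq. Alternatives were DESeq2 1.42.0, other scalings and filters, halved counts, a replicate block, the compared groups alone, the shallowest libraries left out, and each library left out. Same-numbered libraries did not deviate together: correlations ran from -0.239 to 0.332 in culture and from -0.644 to 0.114 in lesions.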

Additional observations from a re-analysis of the deposited data

Results flagged for a closer look

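Of 104 pairs of a lesion group and a mitosis gene, 4 had 1 animal far from the other 3 by Dixon's criterion, which chance meets in about 1 in 20 groups. Kif23 was highest in KO animal 4, at 10.3 CPM against 6.54 to 6.98 CPM. Ttk was lowest in KO animal 1, at 2.28 CPM against 3.17 to 3.33 CPM, and Ube2c was highest in the same animal, at 6.54 CPM against 3.12 to 3.61 CPM. Kif2c was lowest in WT animal 2, at 2.05 CPM against 3.03 to 3.2 CPM.

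In culture, effects differed between groups in tests of the difference itself. The POVPC effect differed between KO and WT cells for 40 of 52 genes in normoxia, against 16.2% of all genes, and for 6 in hypoxia, near the 9.37% of all genes. The hypoxia effect differed between KO and WT cells for 39 genes with vehicle, against 39.1% of all genes, and for 14 with POVPC, a share under the 30% of all genes. Within WT cells, the POVPC effect differed between hypoxia and normoxia for 42 genes, against 23.5% of all genes.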

How the results depend on the processing

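In 3 comparisons the number of the 52 genes called moved by over 1.5 times under an alternative. For POVPC in hypoxic WT cells (14 called) it was 5 with the 2 groups fitted alone and 9 to 13 with 1 library left out. For POVPC in hypoxic KO cells (0 called) it was 2 with DESeq2 and 0 to 1 with 1 library left out, the 1 without KO POVPC hypoxia replicate 2. For the difference of the POVPC effect between lines in hypoxia (6 called) it moved this far without the 3 shallowest libraries. These are WT POVPC hypoxia replicates 1 and 2 and KO vehicle hypoxia replicate 3. That fit keeps 1 WT POVPC hypoxia library, so its counts are not given. The cause of the other moves was not tested. With a replicate block, although the shared numbers were not shown to pair libraries, 47 genes were called for POVPC in normoxic WT cells, 47 for hypoxia in KO cells with vehicle, 39 and 38 for the differences between lines in normoxia and with vehicle, and no count moved by over 1.5 times. Scaling by library size alone moved the median of all genes from -0.03 to -0.21 for hypoxia in WT cells with vehicle, where 5 genes then rose and 20 fell. Among the 10 genes given in full, 1596 of 1633 values under alternatives kept their direction and call, 37 lost the call and 0 reversed. Depth limits the genes under 1 CPM in hypoxic KO cells.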
